A study of Sus scrofa with 50 samples.

Results

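Collagen chains were described in 50 stranded mRNA libraries of Korean minipigs (Sus scrofa). Each of 10 animals, 5 of type ET and 5 of type L, gave 1 library from its heart, kidney, liver, lung and spleen. The labels give the tissue, the type and the animal; they give no age, sex, treatment or line history, so ET and L stand for all that separates these 2 sets of animals. Values listed per animal run over S0235, S0242, S0276, S0309, S0326 for ET and over S0349, S0355, S0377, S0384, S0385 for L. The deposited values were TPM per assembled transcript, a unit scaled by transcript length and by the library's total. A chain here is 1 Swiss-Prot collagen alpha entry, and its TPM is the sum over all assembled transcripts whose best protein hit was that entry. Transcripts aligned to separate parts of 1 protein, as for COL4A2 (residues 1 to 360 and 877 to 1707), are each counted. A sum thus also depends on how the chain was assembled, which limits comparisons of level between chains. By this rule 72 of 57085 transcripts gave 37 chains, out of 35133 genes in all: 10 fibrillar, 6 of the basement membrane (type IV) and 21 others. Chains are named by gene symbol, COL1A1 for the entry CO1A1, and the others likewise.

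Collagens are secreted proteins of 3 chains wound into a triple helix. Fibrillar types I, III and V assemble into the fibres that give tissue its tensile strength and are made mainly by fibroblasts and related mesenchymal cells. Type IV forms the mesh of basement membranes under epithelium and endothelium and around muscle fibres, from fixed combinations of its alpha chains. The remaining types link the fibres, anchor basement membranes, form beaded filaments or span the cell membrane. In bulk tissue, fewer cells of a type and less RNA per cell cannot be told apart.

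Of 45 chains listed for vertebrates, 8 had no transcript with that best hit (COL6A6, COL9A3, COL10A1, COL11A2, COL13A1, COL20A1, COL22A1 and COL25A1), which does not show that they were absent. A single transcript carried 20 of the 37 chains. The assembled transcripts were often aligned to only part of the protein: 16 of the 72 matched fewer than 100 residues. Such short matches held 86.4% of the TPM of COL24A1, 77.6% of COL14A1, 66.0% of COL4A2, 47.1% of COL23A1, 38.7% of COL4A1, 34.6% of COL4A5 and 19.5% of COL18A1. For these chains the level can include transcripts of other genes, and COL24A1 in particular is reported as uncertain.

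Markers of the labelled tissue were high in the other libraries: heart muscle markers summed to at least 23726 TPM in heart and at most 272 TPM elsewhere, hepatocyte markers to at least 77017 TPM in liver and at most 386 TPM elsewhere, and lung epithelium markers to at least 20705 TPM in lung and at most 88.8 TPM elsewhere. The kidney library of ET-type S0235 went against its tissue and is given apart from all kidney values. Its kidney epithelium markers summed to 125.9 TPM against 1688 to 8311 TPM in the other 9 kidneys, and its T lymphocyte markers to 2403 TPM against 6.31 to 70.3 TPM. All 6 type IV chains lay below the range of the other kidneys there: COL4A1 at 7.64 TPM against 76.8 to 153, COL4A2 at 9.54 against 79.7 to 203, and COL4A3 at 0.454 against 13.8 to 46.5. COL15A1 (3.84 TPM) and COL18A1 (12.4 TPM), both basement membrane proteoglycans, were also below the lowest other kidney. COL3A1 stood at 82.3 TPM, inside the range of 8.07 to 88.3 TPM. COL5A2 (13.5 TPM), COL6A3 (5.97 TPM), COL21A1 (1.84 TPM) and COL19A1 (4.18 TPM) exceeded the other 9 kidneys, whose highest values were 10.96, 4.79, 1.80 and 0.213 TPM. Of the chains with a median of at least 1 TPM in the other 9 kidneys, 12 were below their range, 2 above it and 13 within it.

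**Figure D1:**
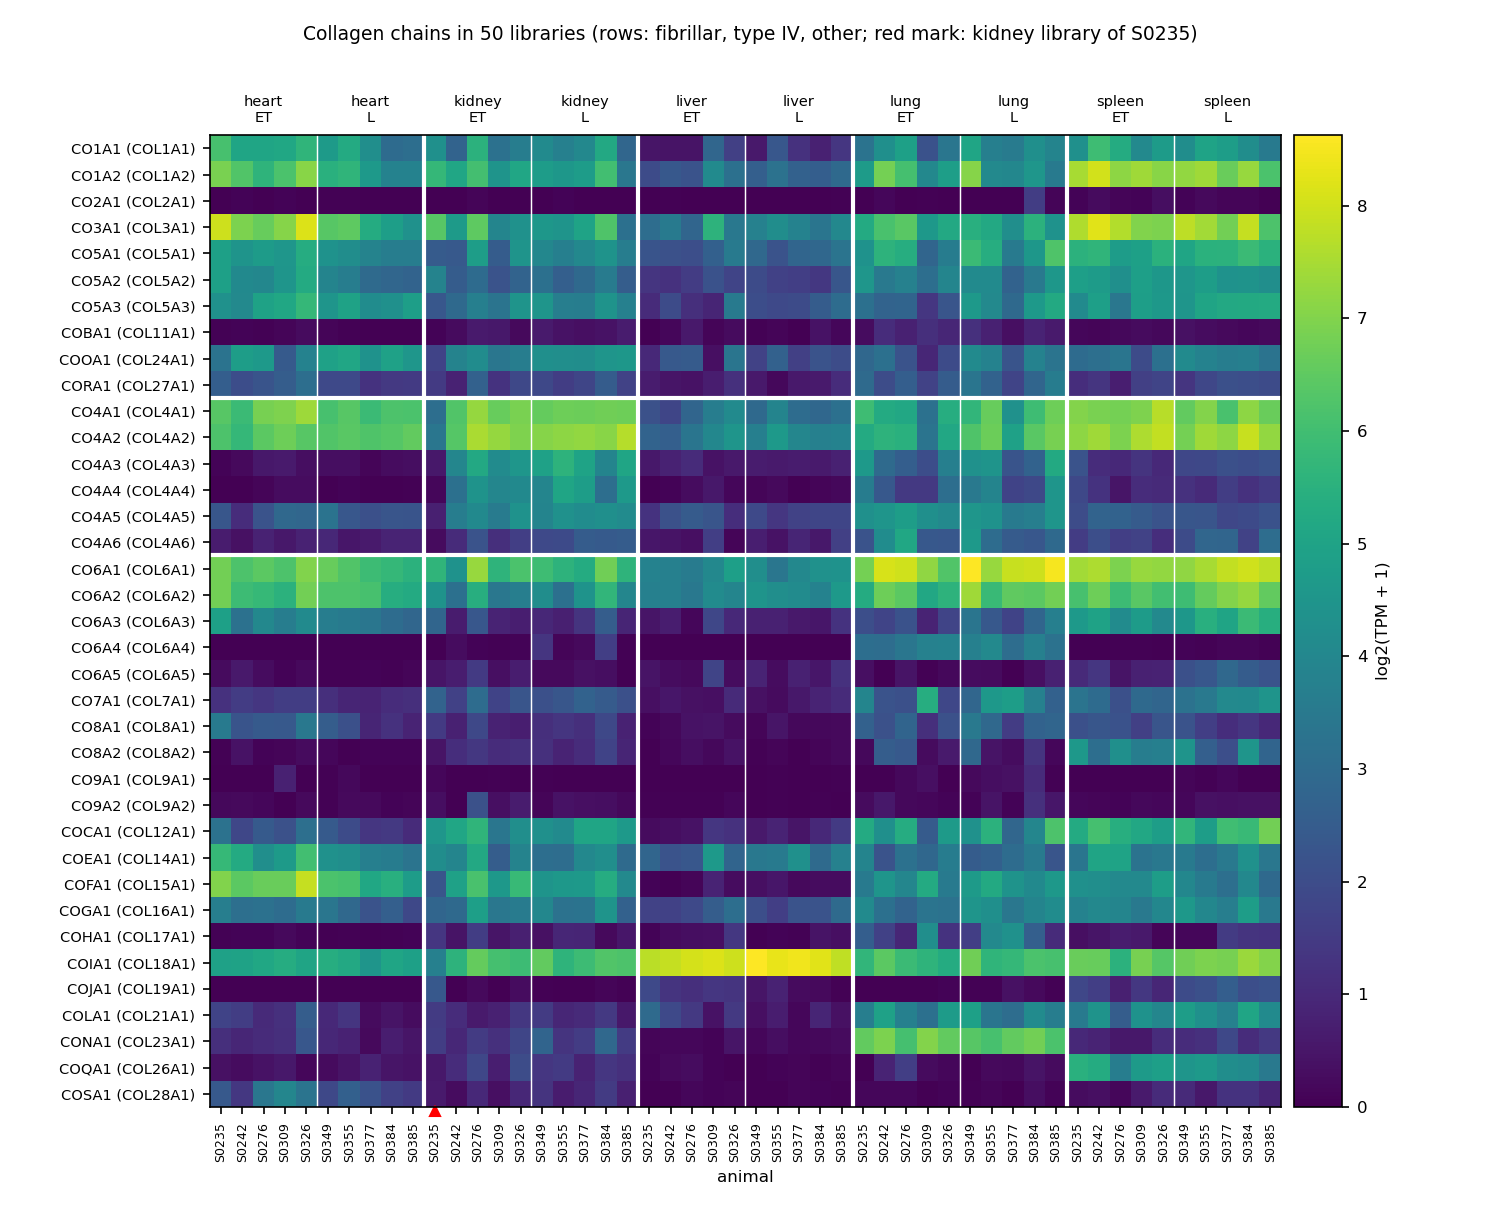
Level of each of the 37 chains (rows, in the order fibrillar, type IV, other) in each of the 50 libraries (columns, by tissue, type and animal) as log2(TPM + 1). COL18A1 is brightest in the 10 livers, COL23A1 in the 10 lungs and COL26A1 in the 10 spleens, and the kidney library of S0235 (red mark) lacks the type IV signal of the other kidneys.

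Summed over all 37 chains, collagen transcripts were highest in spleen, with a median of 1262 TPM (1072 to 1764 TPM, n = 10 animals). Lung followed with 949 TPM (587 to 1420), then heart with 746 TPM (440 to 1504), kidney with 673 TPM (455 to 1184, n = 9) and liver with 406 TPM (287 to 506). The ranges of spleen and liver did not overlap, while every pair of neighbours in this order did. Type IV chains made up a median of 44.0% of collagen TPM in kidney (31.2% to 58.2%), against 24.1% in heart, 21.9% in spleen, 16.3% in lung and 5.92% in liver. In kidney, short matches held 60.8% of the mean TPM of COL4A1 and 77.9% of that of COL4A2, so this share depends on them. Fibrillar chains made up 34.95% in heart and 34.0% in spleen, 18.8% in kidney, 17.9% in lung and 8.49% in liver. In liver the other chains took 86.7% (76.1% to 89.5%), and COL18A1 alone 74.0% (60.5% to 78.0%). In the kidney library of S0235 fibrillar chains made up 50.5% and type IV chains 5.24%. These shares are unaffected by how a library is scaled as a whole, but they do depend on how each chain was assembled.

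**Figure D2:**
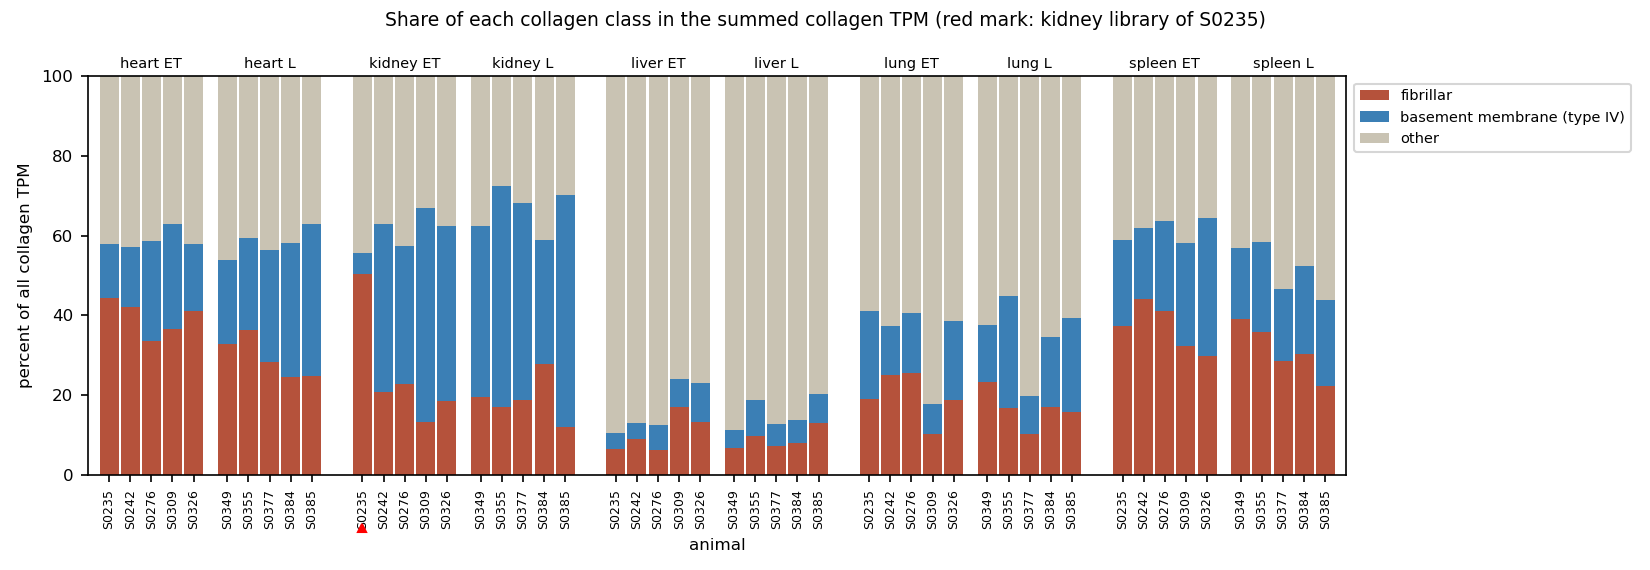
Share of fibrillar, type IV and other chains in the summed collagen TPM of each library, in percent. Type IV chains took a median of 44.0% in the kidneys other than S0235, above the median of every other tissue, and the other chains, chiefly COL18A1, took 76.1% to 89.5% in every liver.

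Each tissue was compared with the mean of the other 4 by limma, and a chain was called where its adjusted p was below 0.05 and its log2 difference at least 1; 31 chains reached a mean of 1 TPM and were tested, and COL2A1, COL6A5, COL9A1, COL9A2, COL11A1 and COL19A1 were not. Spleen had 16 chains higher and 1 lower, where 11.5% of all 29725 genes tested were higher and 12.6% lower. Heart had 8 higher (6.39% of all genes) and 10 lower (29.3%). Kidney had 7 higher (16.9%) and 3 lower (6.11%). Lung had 14 higher (31.1%) and 1 lower (4.16%), so its share of higher chains was 14 of 31 against a background that was itself high. Liver had 1 higher (9.29%) and 26 lower (26.3%). The median difference of the tested chains was 1.19 in spleen against -0.14 over all genes, 0.24 against -0.65 in heart, 0.00 against 0.12 in kidney, 0.54 against 0.66 in lung and -1.87 against -0.56 in liver. With the animal as replicate block, since the 5 tissues came from the same animals, none of these tissue counts moved by more than 1.5 times.

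Scaling bore on some of these counts. Median-ratio scaling moved the median of all genes from 0.66 to -0.02 in lung and from -0.65 to -0.20 in heart. Under it lung had 6 chains higher and 11 lower, against 3839 and 2789 of all 29725 genes. Heart had 14 higher and 5 lower, against 3358 and 4650. Quantile normalisation gave 5 and 10 in lung (3663 and 3438 of all genes) and 14 and 3 in heart (3610 and 3656). In kidney it gave 7 and 5 (3750 and 2996). The median difference of the chains in lung changed sign under both scalings, from 0.54 to -0.26 and -0.28. So did 5 of the 31 chains there (COL1A1, COL5A1, COL5A2, COL15A1 and COL16A1). None of these was called, because their log2 differences were under 1. All except COL1A1 had a limma adjusted p below 0.05 before rescaling (0.00212 to 0.0166). Of the 15 chains called in lung, 8 lost the call under median-ratio scaling and 9 under quantile normalisation; COL4A4, COL4A5, COL6A2, COL7A1, COL8A1, COL12A1 and COL27A1 lost it under both, and none of the 15 changed sign. Liver (1 higher and 25 lower) and spleen (16 and 1) kept their split under median-ratio scaling. Of all genes, 3970 were then higher and 5138 lower in liver, and 3274 and 3832 in spleen. Mitochondrial transcripts took 29.1% to 47.1% of the TPM in heart against 3.12% to 14.8% in lung. With them left out heart had 13 chains higher and 11 lower, against 3023 and 6346 of 30802 genes. The part of mitochondrial transcripts in the tissue differences beyond this was not tested.

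The type I chains, which form the main fibre of skin, bone and tendon, were high in spleen and heart and low in liver. COL1A2 (chromosome 9, 74174484 to 74210407, Sscrofa11.1 as all positions here) had a median of 152 TPM in spleen (72.2 to 263), 48.6 in heart (13.2 to 136), 26.4 in kidney (9.83 to 65.1), 23.9 in lung (10.6 to 131) and 5.25 in liver (2.93 to 16.6). It was higher in spleen than in heart in 9 of 10 animals, and its spleen level differed from the mean of the other tissues by 2.63 ± 0.28 (log2, SE; limma adjusted p = 5.1e-11). Neighbours in this order overlapped in range. COL1A1 (chromosome 12, 26379087 to 26397180), the partner chain, was instead highest in heart at a median of 32.4 TPM (7.14 to 67.7), followed by spleen at 22.4 TPM (10.7 to 60.0), with heart above spleen in 5 of 10 animals. Liver was lowest at 1.04 TPM (0.383 to 6.20). The 2 chains are joined in the protein at a fixed ratio, yet their TPM ratio, COL1A1 over COL1A2, varied by tissue: a median of 0.570 in heart (0.363 to 0.770) against 0.168 in spleen (0.0937 to 0.271), with no overlap between these 2 tissues. Lung spread widest, from 0.165 to 1.31. There the ratio was 0.165 to 0.430 in ET-type and 0.251 to 1.31 in L-type animals, with overlap.

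COL3A1 (chromosome 15, 93556914 to 93595678), the type III chain of distensible tissue such as vessel walls and the reticular fibres of lymphoid organs, had a median of 182 TPM in spleen (73.2 to 304), 93.2 in heart (19.5 to 284), 36.9 in lung (18.3 to 83.8), 22.8 in kidney (8.07 to 88.3) and 11.9 in liver (6.07 to 46.4). It was called higher in spleen (2.30 ± 0.28) and heart (1.12 ± 0.28) and lower in liver (-2.18 ± 0.28). COL5A2, a type V chain that takes part in starting fibrils, lies 16177 bases beyond COL3A1 and shared its order in the first 2 places, with 22.3 TPM in spleen and 14.4 TPM in heart; it was called higher in spleen (1.53 ± 0.16). COL5A1 and COL5A3, the other type V chains, were called higher in spleen by 1.503 ± 0.24 and 1.23 ± 0.23. Of the 8 fibrillar chains tested, 6 were called higher in spleen, 4 in heart, 0 in kidney, 1 in lung and 0 in liver, and all 8 were lower in liver. The chain in lung was COL27A1, at 2.26 to 11.2 TPM there.

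Fibrillar chains of cartilage were close to nothing in these tissues. COL2A1, the cartilage fibre chain, reached 1 TPM in 1 of 50 libraries, the lung of L-type S0384 at 1.98 TPM, where COL9A1 also peaked at 1.07 TPM. COL11A1 reached 1 TPM in 3 libraries. Only 2 of the 8 listed cartilage markers were matched, SOX9 and COMP, and they stood at 1.26 and 3.70 TPM in that lung, inside the range of the other lungs.

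**Figure D3:**
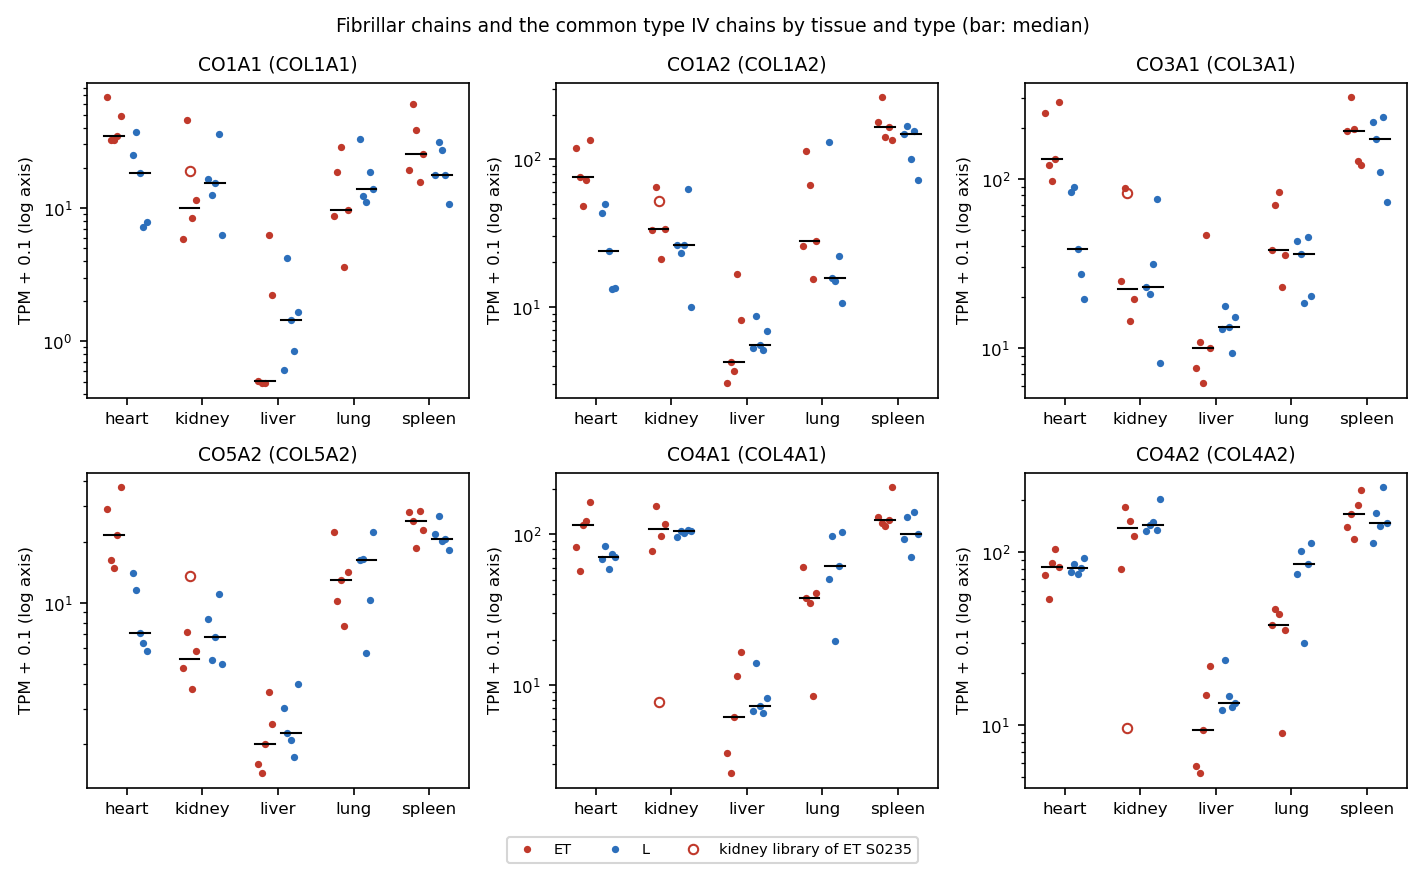
TPM of 4 fibrillar and 2 type IV chains by tissue and type on a log axis after adding 0.1, 1 point per library and a bar at the group median; the open circle is the kidney library of S0235. In heart all 5 ET-type values of COL3A1 and COL5A2 lie above all L-type values, and the medians of COL4A1 and COL4A2 are lowest in liver.

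The common type IV chains COL4A1 and COL4A2 lie head to head on chromosome 11 (76858332 to 76997409, and 76996885 to 77161617), and their annotated ranges overlap by 525 bases. Their order was the same: COL4A1 had a median of 122 TPM in spleen, 104 in kidney, 77.7 in heart, 45.5 in lung and 6.93 in liver, and COL4A2 had 157, 143, 81.9, 45.1 and 12.99 TPM. Kidney stood above heart through the short matches. The COL4A1 transcript aligned over 34 residues had a mean of 64.8 TPM in kidney and 17.8 in heart, that over 361 residues 41.7 and 71.6. For COL4A2 the match over 85 residues had 113 and 38.8 TPM, that over 831 residues 31.0 and 41.2. Spleen and kidney did not separate, since COL4A1 was higher in spleen in 5 of 9 animals. Both chains were called higher in spleen (1.49 ± 0.22 and 1.64 ± 0.19) and kidney (1.28 ± 0.23 and 1.39 ± 0.20) and lower in liver (-3.32 ± 0.22 and -2.89 ± 0.19). The ratio of COL4A1 to COL4A2 ran from a median of 0.596 in liver to 1.03 in heart.

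COL4A3 and COL4A4, which with COL4A5 form the mature network of the glomerular filter and of lung alveoli, were kidney and lung chains. They too lie head to head, on chromosome 15, with annotated ranges that overlap by 663 bases. COL4A3 had a median of 29.7 TPM in kidney (13.8 to 46.5), 9.56 in lung (3.13 to 36.5), 2.61 in spleen (0.975 to 3.62), 0.553 in liver and 0.243 in heart. COL4A4 followed in the same order with 16.2, 5.92, 1.34, 0.0958 and 0.0289 TPM. Kidney was above lung in 8 of 9 animals for COL4A3 and in 9 of 9 for COL4A4, although the ranges overlapped. The kidney differences were 3.15 ± 0.22 and 3.06 ± 0.22, the largest of any chain in that tissue, and the lung differences 1.67 ± 0.21 and 1.34 ± 0.21. The ratio of COL4A3 to COL4A4 had a median of 1.42 in kidney (1.14 to 2.07), 1.78 in lung (1.52 to 2.94) and 1.82 in spleen (0.811 to 2.59), and these ranges overlapped. Relative to COL4A1, COL4A3 stood at 0.236 in kidney, 0.256 in lung and 0.00311 in heart. Podocin (PODO) and nephrin (NPHN), markers of the glomerular podocyte, were at 228 to 730 TPM and 8.32 to 32.3 TPM in the same 9 kidneys, and at 1.30 and 3.91 TPM in the kidney library of S0235.

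COL4A5 (1.65 ± 0.15 higher in lung and 1.39 ± 0.16 in kidney) and COL4A6 lie on chromosome X. COL4A6 was highest in lung, at a median of 5.62 TPM with a wide spread of 3.61 to 34.0 TPM. Its 3 highest lungs were those of ET-type S0242 (17.4 TPM), ET-type S0276 (34.0 TPM) and L-type S0349 (23.6 TPM), and the other 7 stood at or below 7.20 TPM. The same 3 lungs held WT1, a mesothelial marker, at 31.0, 53.4 and 20.8 TPM, where the other 7 were at or below 0.663 TPM. UPK3B, another, stood at 171, 69.8 and 207 TPM there against at most 12.6 TPM elsewhere. COL1A2 was likewise highest in them, at 113, 67.1 and 131 TPM against at most 27.8 TPM in the other 7 lungs. The full mesothelial list, 3 of 4 markers matched, summed to 225 to 831 TPM in ET-type and 192 to 716 TPM in L-type lungs. The third matched marker thus made up most of the sum in the other 7 lungs and was not confined to these 3. Whether the piece of lung taken bears on these values was not tested.

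Type VI collagen, the beaded filament around cells, had the largest mean share of collagen TPM of any chain in lung (COL6A1, 23.4% ± 6.15, SD, n = 10) and in spleen (13.5% ± 2.59). COL6A1 had a median of 243 TPM in lung (77.8 to 386), 176 in spleen (121 to 253), 75.5 in heart (45.9 to 125), 47.8 in kidney (19.9 to 155) and 15.2 in liver (9.34 to 28.5). Lung and spleen could not be ordered, with lung higher in 5 of 10 animals. COL6A2, its partner, was called higher in spleen (1.36 ± 0.21) and lung (1.07 ± 0.21) and lower in kidney (-1.57 ± 0.21). The third chain of the classical filament, COL6A3, was far from proportional to the other two: relative to COL6A1 it stood at 0.158 in spleen (0.106 to 0.236) and 0.140 in heart (0.113 to 0.261), but at 0.0237 in lung (0.00555 to 0.0333) and 0.0183 in kidney. COL6A3 was called higher in spleen (2.90 ± 0.20) and heart (1.35 ± 0.20). COL6A4, a chain that can take the place of COL6A3, was a lung chain, at 7.40 to 15.8 TPM in the 10 lungs against at most 2.04 TPM in any other library (lung difference 3.39 ± 0.11). It rests on 1 transcript, of 67.5% identity to the mouse protein.

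COL15A1 and COL18A1, the multiplexins, are proteoglycans of basement membranes. COL15A1 (chromosome 1, 240718128 to 240829188), known from muscle and capillaries, was highest in heart, at a median of 78.9 TPM (26.0 to 235.04), and lowest in liver, at 0.216 TPM (0.0212 to 0.813), with 24.4 in kidney, 21.2 in lung and 15.6 in spleen. Its heart difference, 2.83 ± 0.18, was the largest of any chain in heart, and its liver difference, -4.58 ± 0.18, the lowest of any chain in liver. COL18A1 (chromosome 13, 207907835 to 207984082), the precursor of endostatin, was the one chain called higher in liver (2.19 ± 0.12; limma adjusted p = 5.2e-20). The 10 livers stood at 212 to 394 TPM, above every other library, and spleen followed at 45.6 to 159 TPM. Albumin, a hepatocyte product, was at 55175 to 174596 TPM in these livers. The identity of COL18A1 transcripts to the mouse or human protein ran from 75.4% to 85.7%, and with only transcripts of at least 80% identity its liver difference was 0.79 and no chain was called higher in liver.

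The COL18A1 signal moved between transcripts. COL18A1 is known to be transcribed from more than one promoter, which gives products of different length. A transcript of 6320 bases, assembled from ET-type liver and aligned to 1281 residues of the protein (positions 494 to 1774), held a median of 79.3% of the COL18A1 TPM in liver (37.6% to 91.2%) and 62.9% in spleen, but 10.2% in lung (4.28% to 33.3%). In TPM it stood at a median of 207 in liver, 68.4 in spleen and 5.76 in lung. A second transcript, of 6544 bases and aligned to residues 1268 to 1753, was at a similar level in liver and lung, with medians of 30.8 and 27.6 TPM. Liver exceeded lung in the first transcript, and the ranges of its share in these 2 tissues did not overlap.

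COL23A1, a chain that spans the cell membrane, had the largest lung difference of any chain tested, 5.53 ± 0.14 (limma adjusted p = 2.5e-33). It stood at 66.7 to 128 TPM in the 10 lungs against at most 6.49 TPM in any other library. COL26A1, a small chain of uncertain role, marked spleen at 10.1 to 43.4 TPM against at most 3.05 TPM elsewhere (3.94 ± 0.15). COL8A2, of the network type VIII, was also called higher in spleen (2.94 ± 0.23), with a median of 11.9 TPM (3.18 to 22.97) against 1.19 TPM in kidney, the next tissue by median. Spleen did not overlap kidney, but it did overlap lung, where the highest library (L-type S0349) reached 6.58 TPM. COL28A1, known from nerve, was higher in heart (1.99 ± 0.15) at 1.66 to 14.7 TPM. COL7A1, the anchoring fibril of stratified epithelium, and COL17A1, the membrane collagen of hemidesmosomes, were called higher in lung (1.55 ± 0.23 and 1.998 ± 0.24) with much spread. Lungs of ET-type S0309, L-type S0355 and L-type S0377 held COL7A1 at 40.3, 23.2 and 26.7 TPM and COL17A1 at 18.1, 15.7 and 19.4 TPM, while the other 7 lungs held at most 14.04 and 5.05 TPM. Those 3 lungs also had COMP, a cartilage and tendon protein, at 37.4, 24.3 and 39.3 TPM against at most 3.70 TPM in the rest; its part in these values was not tested.

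**Figure D4:**
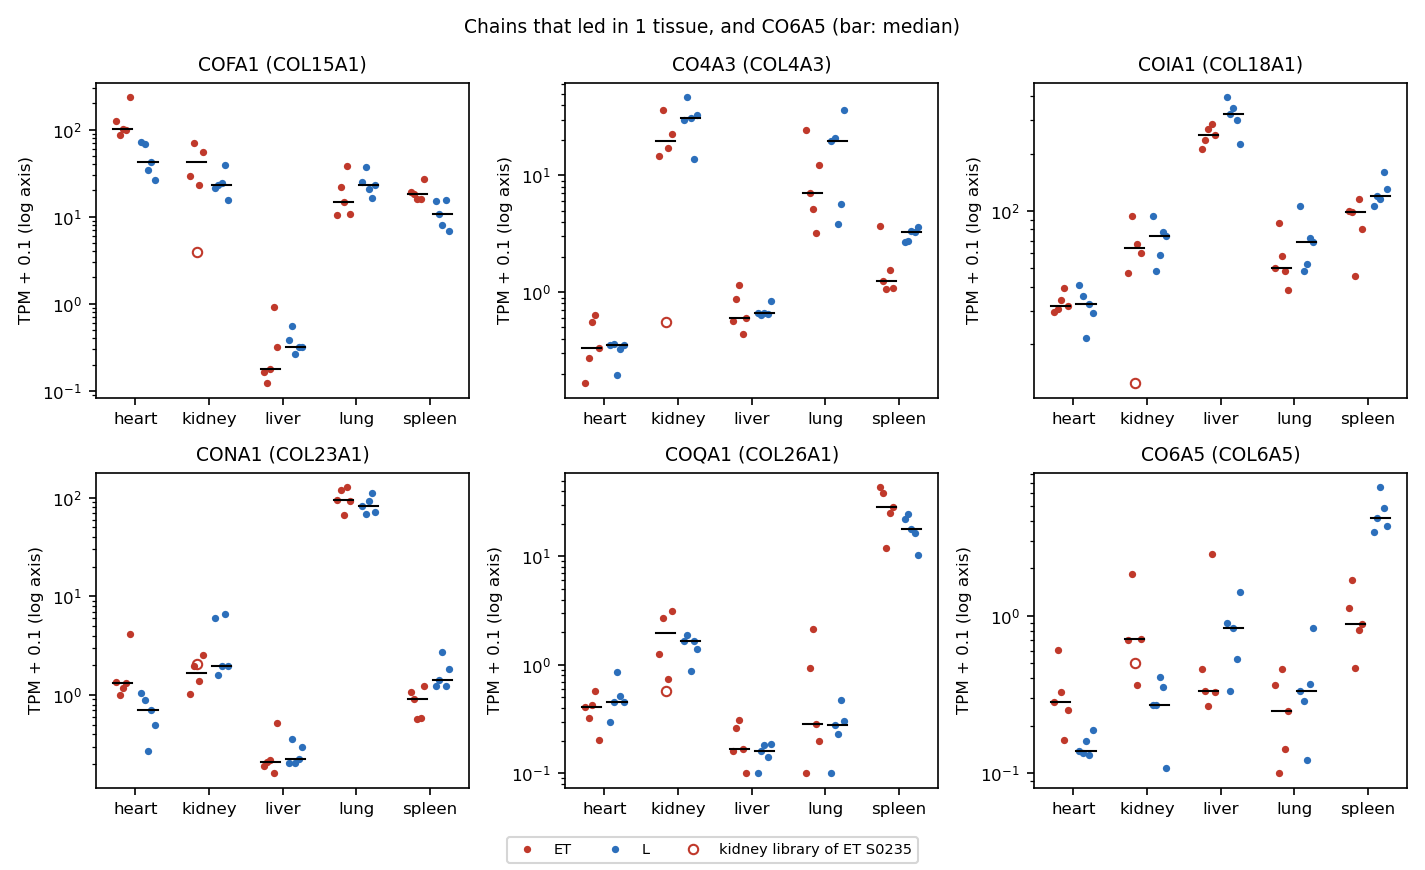
TPM of the chain with the largest positive difference in each tissue, COL15A1 (heart), COL4A3 (kidney), COL18A1 (liver), COL23A1 (lung) and COL26A1 (spleen), and of COL6A5, by tissue and type on a log axis after adding 0.1, with 1 point per library and a bar at the group median. All 10 livers, lungs and spleens lie above every other library for COL18A1, COL23A1 and COL26A1, and COL6A5 separates the types in spleen.

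ET-type and L-type animals were compared within each tissue by limma, 5 against 5 (4 against 5 in kidney), on log2(TPM + 1) with ET minus L as the direction. In heart 24 of the 37 chains passed the filter and 0 were called, where 0.0238% of all genes were. At an unadjusted p below 0.05 there were 17 of these 24, against 22.2% of all genes. The groups did not overlap in 6 of the 24, all with ET higher (COL3A1, COL5A1, COL5A2, COL7A1, COL15A1 and COL27A1), against 4.68% of all genes in either direction. The median difference was 0.77 over these chains and 0.09 over all genes, and 21 of 24 were positive. By class, 7 of 8 fibrillar chains were positive with a median of 1.12, 13 of 13 other chains with 0.73, and 1 of 3 type IV chains with -0.07.

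COL3A1 in heart stood at 247, 121, 97.2, 132 and 284 TPM in the ET-type animals and at 83.4, 89.2, 38.4, 27.3 and 19.5 TPM in the L-type animals. Every ET-type heart was above every L-type heart, with the narrowest gap between ET-type S0276 and L-type S0355. The difference was 1.87 ± 0.45 (log2, SE) with a limma adjusted p of 0.0864, which does not pass. COL5A2 was at 29.1, 16.2, 14.9, 21.6 and 37.3 TPM against 13.95, 11.5, 6.99, 6.24 and 5.69 TPM, a difference of 1.32 ± 0.30 (adjusted p = 0.0863). COL15A1 was at 126, 85.9, 100.4, 100.045 and 235.04 TPM against 71.9, 68.0, 34.5, 42.3 and 26.0 TPM (1.40 ± 0.33, adjusted p = 0.0863). These too did not overlap. COL1A2 was at 118, 76.1, 47.9, 72.2 and 136 TPM against 43.5, 49.3, 23.7, 13.2 and 13.3 TPM (1.73 ± 0.41, adjusted p = 0.0863), where ET-type S0276 fell below L-type S0355. COL1A1 ran from 32.3 to 67.7 TPM against 7.14 to 37.4 TPM (1.33 ± 0.42, adjusted p = 0.117). COL4A1 ran from 57.3 to 163.2 TPM against 58.3 to 83.0 TPM (0.52 ± 0.25, limma adjusted p = 0.246). COL4A2 ran from 53.2 to 105 TPM against 75.2 to 92.4 TPM (-0.07 ± 0.18, limma adjusted p = 0.855). Each of these type IV chains overlapped between types. Their ratio, COL4A1 over COL4A2, was 1.08 to 1.98 in ET-type and 0.766 to 0.974 in L-type hearts, which did not overlap. In each other tissue this ratio overlapped between types. It was not tested, and both chains rest in part on short matches.

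The fibrillar share of collagen TPM in heart was 33.6% to 44.3% in ET-type and 24.4% to 36.3% in L-type animals, and the type IV share 13.5% to 26.4% against 21.1% to 38.2%; both pairs of ranges overlapped. Without ET-type S0242, 10 chains were called higher in heart; leaving out any other animal gave 0. With the animal as replicate block, in 1 fit over every tissue, 5 were called (COL3A1, COL5A2, COL8A1, COL15A1 and COL28A1, adjusted p 0.00591 to 0.0411). The share of all genes called in these alternative fits is not given here, so the counts are not set against it. Heart muscle markers, 6 of 6 matched, summed to 23726 to 71308 TPM in ET-type and 71418 to 86257 TPM in L-type hearts, with no overlap. The fibroblast list (8 of 8 matched, DPEP1 at 0 in all hearts) summed to 708 to 2149 TPM against 242.01 to 774 TPM, with 7 of 7 tested members positive and 0 called. Smooth muscle and pericyte markers summed to 507 to 921 against 506 to 689 TPM, and endothelial markers to 206.5 to 570.5 against 143 to 271 TPM. Red cell markers, 5 of 5 matched, summed to 129 to 1161 against 13.4 to 135 TPM; all 4 tested were positive at an unadjusted p below 0.05, with a median difference of 1.96, and 0 were called. With haemoglobin left out the median of the heart chains was 0.78, and 0 were called. Macrophage markers summed to 241 to 471 against 95.4 to 324 TPM, with 8 of 8 positive, 3 at an unadjusted p below 0.05 and 0 called. The part of these cell types, and of mitochondrial transcripts at 32.8% to 47.1% against 29.1% to 39.6% of TPM, in the heart differences was not tested.

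**Figure D5:**
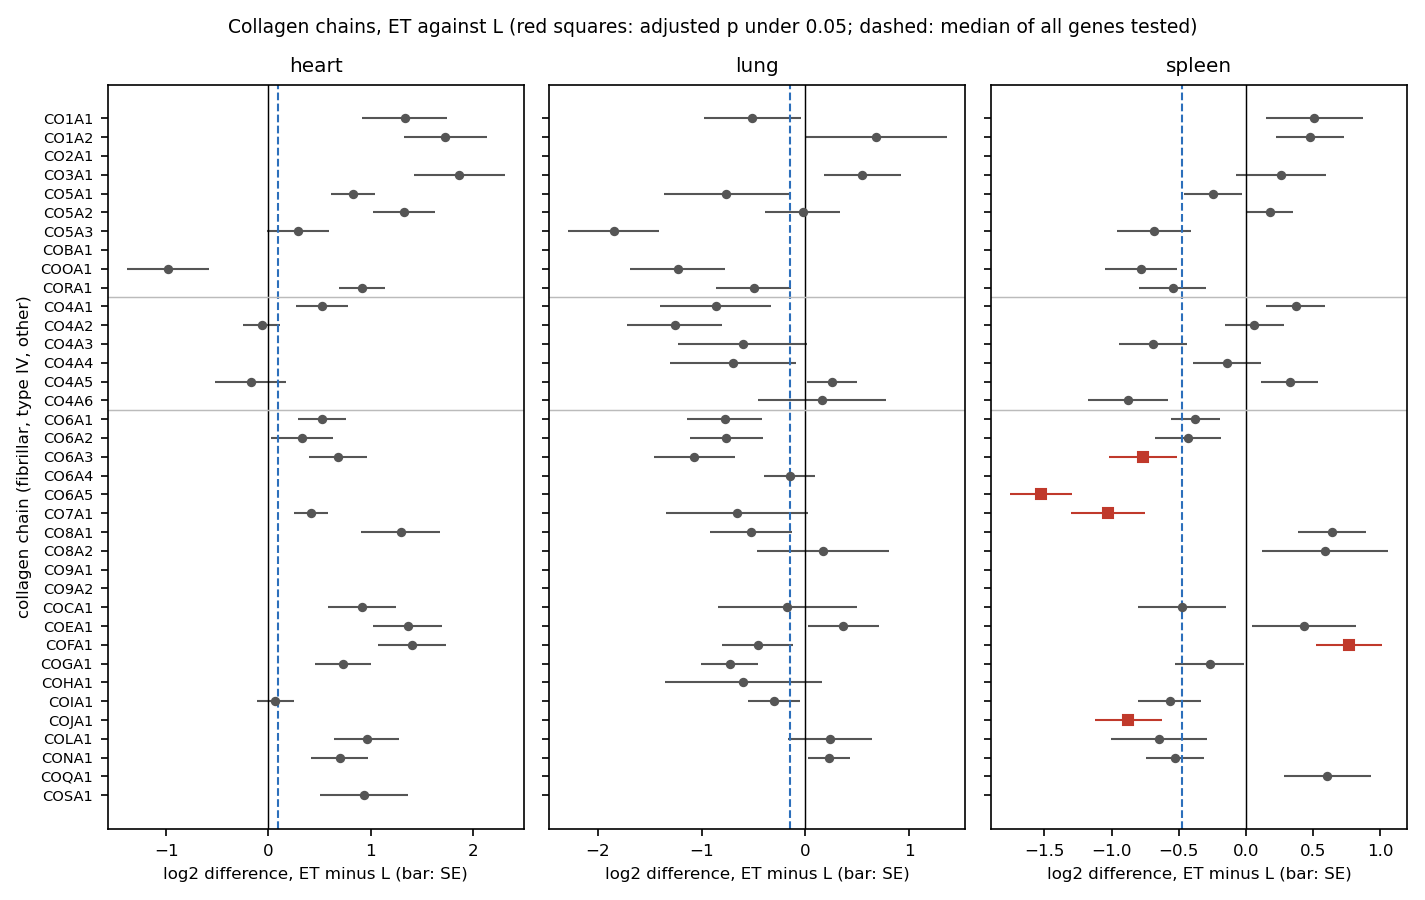
Difference between ET-type and L-type animals (log2 of TPM + 1, bars are SE) of each tested chain in heart, lung and spleen, with the median of all genes as a dashed line. In heart 21 of 24 chains lie above 0 and none is called; in spleen the 5 called chains are drawn as red squares, 1 higher and 4 lower in ET-type.

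In spleen 30 chains were tested, and COL15A1 was called higher and COL6A5, COL7A1, COL19A1 and COL6A3 lower in ET-type animals. That is 5 of 30, where 22.2% of all genes were called, 167 higher and 5172 lower, and the median of all genes was -0.47; the chains' share was below that background. COL6A5, another chain that can take the place of COL6A3, was at 1.02, 1.58, 0.369, 0.713 and 0.785 TPM in ET-type against 3.33, 4.10, 6.46, 4.72 and 3.60 TPM in L-type spleens. No value overlapped and the difference was -1.53 ± 0.23 (limma adjusted p = 0.0156). COL19A1, a fibril-associated chain, was at 0.704 to 2.54 TPM against 2.93 to 5.03 TPM (-0.87 ± 0.25, adjusted p = 0.0336). COL7A1 was at 3.35 to 9.02 TPM against 8.49 to 20.8 TPM (-1.03 ± 0.28, adjusted p = 0.0305) and COL6A3 at 15.7 to 30.0 TPM against 22.8 to 57.3 TPM (-0.76 ± 0.25, adjusted p = 0.0484). These 2 overlapped. COL15A1 was at 18.9, 18.0, 15.8, 15.8 and 26.9 TPM against 15.1, 10.5, 7.98, 15.3 and 6.70 TPM (0.77 ± 0.25, adjusted p = 0.0444), which did not overlap. In all, 4 of the 30 chains did not overlap between types (COL15A1 above, and COL6A5, COL19A1 and COL23A1 below), against 15.8% of all genes.

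Haemoglobin transcripts took 10.97% to 33.5% of the TPM in ET-type spleens and 0.548% to 14.9% in L-type spleens, and T lymphocyte markers (7 of 7 matched) summed to 42.3 to 147 TPM against 126 to 469 TPM. With haemoglobin left out the median of all genes was -0.29, and COL15A1, COL6A5 and COL7A1 were called. Of all 24869 genes tested, 206 were then called higher and 1744 lower. Under median-ratio scaling the median of all genes was -0.03, and 371 of 24007 genes were called higher and 273 lower. There 18 of 30 chains were positive rather than 12, and their median moved from -0.32 to 0.17. Only COL6A5 was called (-1.18, limma adjusted p = 0.0348). Under quantile normalisation 0 chains were called, against 25 genes higher and 23 lower, and COL6A5 stood at -1.004 (limma adjusted p = 0.0666). The calls over all genes thus fell as well. With 1 animal left out, COL6A5 was called each time. The count was 8 without L-type S0349, 3 without ET-type S0242 or L-type S0355, and 1 without ET-type S0276, ET-type S0326, L-type S0377, L-type S0384 or L-type S0385. These counts, too, are given without the share of all genes called in the same fit. With the animal as replicate block, where COL6A5 and COL19A1 were not tested, 0 were called. None of the main fibre chains was called in spleen, with adjusted p-values of 0.155 for COL1A2, 0.277 for COL1A1 and 0.546 for COL3A1, nor were the type IV chains COL4A1 (0.197) and COL4A2 (0.831).

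In lung 0 of 29 tested chains were called (0.213% of all genes), and 5 had an unadjusted p below 0.05 (16.2% of all genes). None was without overlap between types, against 4.2% of all genes. The lowest p was that of COL5A3, at 8.06, 5.75, 5.91, 1.59 and 3.801 TPM in ET-type against 24.5, 15.5, 6.76, 24.7 and 36.8 TPM in L-type lungs (-1.85 ± 0.44, adjusted p = 0.0997). The highest ET-type lung lay above L-type S0377 and below the other 4. Without L-type S0377 it was called, and in a fit with the animal as replicate block COL5A3 (adjusted p = 0.00569) and COL4A2 (-1.26, adjusted p = 0.0342) were. COL6A3 came next, at 0.801 to 3.49 TPM against 2.34 to 12.1 TPM (-1.07 ± 0.39, adjusted p = 0.215). The median over the tested lung chains was -0.51 against -0.15 for all genes. COL1A2 and COL3A1 lay on the other side, at 0.68 ± 0.68 and 0.55 ± 0.37. Macrophage markers (8 of 8 matched, 0 called) summed to 193 to 720 TPM in ET-type and 740 to 2393 TPM in L-type lungs, with no overlap, and their part in the lung differences was not tested.

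In kidney 0 of 28 chains were called (0.00376% of all genes); 2 had an unadjusted p below 0.05 (8.7% of all genes) and 1 did not overlap (2.92% of all genes). This was COL24A1, at 9.46 to 17.4 TPM in ET-type and 17.6 to 22.9 TPM in L-type kidneys (-0.60 ± 0.24, adjusted p = 0.573), which rests mostly on short matches. Median-ratio scaling moved the median of all genes in kidney from -0.28 to -0.01, and with it the number of positive chains from 9 to 17 of 28 and their median from -0.18 to 0.08. COL4A6 was at 1.11 to 3.61 TPM against 2.70 to 4.70 TPM (-0.74 ± 0.31, adjusted p = 0.573). The glomerular chain COL4A3 stood at 14.6 to 36.2 TPM against 13.8 to 46.5 TPM (-0.42 ± 0.37). In liver 0 of 17 chains were called (0.00933% of all genes), 2 had an unadjusted p below 0.05 (6.58% of all genes) and 1 did not overlap (1.08% of all genes). That chain was COL19A1, at 2.73, 1.47, 1.25, 1.60 and 1.43 TPM in ET-type livers against 0.402, 0.767, 0.185, 0.162 and 0.0367 TPM (1.04 ± 0.24, adjusted p = 0.335), the opposite order to spleen. COL21A1 was next, at 0.355 to 6.98 TPM against 0.113 to 0.857 TPM (1.15 ± 0.40, adjusted p = 0.646). COL18A1, the main liver chain, was at 212 to 287 TPM against 223 to 394 TPM (-0.32 ± 0.19, adjusted p = 0.859).

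Over each animal's mean of heart, liver, lung and spleen, 0 of 31 chains were called (0.0104% of all genes) and 9 had an unadjusted p below 0.05 (18.5% of all genes). COL14A1, a fibril-associated chain, differed by 0.38 ± 0.12 (adjusted p = 0.173), COL5A3 by -0.70 ± 0.22 and COL3A1 by 0.63 ± 0.20 (both adjusted p = 0.174). The interaction of type and tissue, which asks whether the type difference itself varied, was called for 3 of 31 chains by limma's F test, where 6.1% of all genes were: COL15A1 (adjusted p = 0.0333), COL5A2 (0.0348) and COL8A1 (0.0426). COL5A2 differed between types by 1.32 in heart and -0.03 in lung. COL8A1, a network chain of vessel walls, was at 10.6, 3.78, 4.499, 4.27 and 10.02 TPM in ET-type against 4.82, 3.26, 0.877, 1.36 and 0.820 TPM in L-type hearts (1.29 ± 0.38), and differed by -0.52 in lung. With the animal as replicate block 8 chains were called, these 3 and COL5A3, COL21A1, COL23A1, COL27A1 and COL28A1, and the share of all genes called in that fit is not given here. With the kidney library of S0235 included 0 were called, and the same held under quantile normalisation and without ET-type S0235, ET-type S0326, L-type S0377, L-type S0384 or L-type S0385.

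Genes that make, cut or bind collagen were taken from lists. Of 31 enzymes and chaperones, 29 were matched and 28 tested between tissues, with 13 higher and 0 lower in spleen, where 11.5% of all genes were higher and 12.6% lower. The 6 higher and 1 lower in lung stood against 31.1% and 4.16% of all genes, the 1 and 2 in kidney against 16.9% and 6.11%, the 0 and 6 in heart against 6.39% and 29.3%, and the 2 and 11 in liver against 9.29% and 26.3%. The shares higher in lung and lower in heart were thus below those of all genes. Liver thus had low SERPINH1 (the entry SERPH), the collagen chaperone, at -2.50, and low SPARC (SPRC), a collagen-binding protein, at -3.71, while the beta subunit of prolyl 4-hydroxylase (PDIA1), which also folds other proteins, was higher by 2.63. Of 12 matched turnover genes 11 were tested, with 7 higher in spleen, 5 in lung and 9 lower in liver, against the same shares of all genes. Of 7 collagen receptors, 4 were called in spleen, 3 higher and ITA2 lower by 1.06 (log2 difference -1.06), against 11.5% and 12.6% of all genes. In liver 3 were lower (26.3% of all genes) and in heart 1 was lower (29.3%). Kidney had 1 higher (16.9%) and 1 lower (6.11%), and lung 1 higher (31.1%). The platelet receptor GPVI and LAIR1, an inhibitory receptor of leukocytes, were the higher ones with the largest differences in spleen (3.98 and 3.39).

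Between types, 0 of the 26 enzymes and chaperones tested in heart were called, 13 had an unadjusted p below 0.05 (22.2% of all genes) and 23 were positive, with SPARC at 180 to 465 TPM in ET-type and 60.8 to 162 TPM in L-type hearts (1.43 ± 0.30, adjusted p = 0.0863) and P3H2, a prolyl 3-hydroxylase, at 1.07 ± 0.25. All 9 turnover genes tested there were positive, 7 had an unadjusted p below 0.05 (again against 22.2% of all genes) and 0 were called. TIMP1, a metalloproteinase inhibitor, was at 26.5 to 59.2 TPM against 11.8 to 20.4 TPM (1.36 ± 0.24, adjusted p = 0.0863), and cathepsin K (CATK), which cleaves the triple helix, at 26.3 to 58.0 TPM against 11.14 to 22.6 TPM. In spleen, where 22.2% of all genes were called, 2 of 27 enzymes and chaperones, 0 of 9 turnover genes and 1 of 7 receptors were. PCOC1, the enhancer of procollagen C-proteinase, was called higher (0.67 ± 0.20, adjusted p = 0.0359) and GT251, which glycosylates collagen, lower (-0.55 ± 0.18, adjusted p = 0.0447), and the receptor subunit ITA2 was called lower (-0.69 ± 0.20, adjusted p = 0.0336). In lung none of the genes on the 3 lists was called (6 of 28 enzymes and chaperones, 3 of 10 turnover genes and 2 of 7 receptors at an unadjusted p below 0.05, as were 16.2% of all genes); GT251 (-0.73 ± 0.23) and MRC2, an uptake receptor for collagen (-1.16 ± 0.36), had the smallest p-values in their lists. None was called in kidney (1 of 9 turnover genes at an unadjusted p below 0.05, against 8.7% of all genes), in liver (2 of 21 enzymes and chaperones, against 6.58%) or over animal means (4 of 28 enzymes and chaperones and 2 of 11 turnover genes, against 18.5%).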

How the data were processed

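Total RNA was extracted with TRIzol and sequenced from TruSeq stranded mRNA libraries, per the labels' protocols. The deposited values are TPM per assembled transcript, made by the authors; the submitters' processing notes name Trimmomatic 0.36, Salmon 1.10.0 and the Sscrofa11.1 build, and the assembler is not given in the sources used here. TPM keeps no read depth, so depth is unknown and no counting interval is given. The authors' deposited annotation gave each transcript's best Swiss-Prot hit, with its percent identity and E-value.

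Transcripts were summed per entry (14532 entries), and those without a hit were kept singly. The collagen chains and all gene lists were chosen with earlier results of these data known. The tests used log2(TPM + 1), R 4.3.3 and limma 3.58.1 with its mean-variance trend. A gene entered a fit when its mean TPM there reached 1, with Benjamini-Hochberg adjustment over all genes that entered. A log2(TPM + 1) difference understates the change of low genes. Type differences were fitted per tissue, tissue differences and the interaction over 49 libraries without the kidney of S0235, and animal means over the other 4 tissues. Chains were named as the 3 highest of a class, as those that led a tissue, as those called between types, or, where none was called, as the 2 with the smallest p in a tissue; others in the text, COL8A1 and the cartilage chains among them, were picked after their values were seen. The fitting script was tested on simulated data. Positions are from RefSeq Sscrofa11.1, which matched 35 of the 37 chains. Nothing in the labels says more of the animals' relation. The p-values of the type fits measure the spread between these animals. Those of the tissue and interaction fits measure the spread between libraries, several of which came from each animal. The same animal gave 5 tissues, so a fit with the animal as replicate block was an alternative; its estimated correlation between tissues of 1 animal was 0.124. Others changed the pseudocount, filter, scaling, composition, hit, threshold or libraries; 1, a minimum alignment of 100 residues, was added after seeing the data. No pair of libraries held identical values.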

Additional observations from a re-analysis of the deposited data

Results flagged for a closer look

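Among 212 groups of 4 or 5 libraries over 24 named chains, 17 had 1 library that stood apart from the rest by Dixon's criterion, and chance alone marks about 1 in 20 groups. The liver of ET-type S0309 was highest of its group for COL3A1 (46.4 TPM), COL14A1 (24.5 TPM), COL6A5 (2.37 TPM) and COL4A6 (2.06 TPM), and the lung of the same animal was lowest for COL4A1 (8.37 TPM) and COL4A2 (8.94 TPM). Its spleen was lowest for COL24A1 (2.92 TPM). In other livers COL4A2 was highest in L-type S0355 (23.7 TPM), COL19A1 in ET-type S0235 (2.73 TPM) and COL7A1 in ET-type S0326 (1.03 TPM). In heart COL4A5 stood apart in L-type S0349 (8.80 TPM) and COL23A1 in ET-type S0326 (4.09 TPM). In kidney this held for COL4A2 in L-type S0385 (203 TPM) and COL6A3 in ET-type S0276 (4.05 TPM). In spleen it held for COL4A1 in ET-type S0326 (205 TPM) and COL4A3 in ET-type S0235 (3.62 TPM), and in lung for COL1A2 in L-type S0349 (131 TPM).

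The type difference varied between tissues by limma's F test for COL15A1 (adjusted p = 0.0333), COL5A2 (adjusted p = 0.0348) and COL8A1 (adjusted p = 0.0426), and none of these was called with the kidney library of S0235 included. That library, left out of the comparisons, held COL5A2 at 13.5 TPM, COL6A3 at 5.97 TPM, COL19A1 at 4.18 TPM and COL21A1 at 1.84 TPM, each above the other 9 kidneys.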

How the results depend on the processing

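None of the 23 log2 differences of single chains recomputed under the alternatives changed sign. Across the 4 scaling and composition alternatives, no chain called between tissues or types changed sign either, but medians over chains did: in lung against the other tissues (0.54 to -0.26 under median-ratio scaling), in kidney (0.00 to -0.12), and between types in spleen (-0.32 to 0.17), in kidney (-0.18 to 0.08) and over animal means (-0.05 to 0.11). In lung COL5A1, COL5A2, COL15A1 and COL16A1 changed sign too, with a limma adjusted p below 0.05 but a log2 difference under 1. The counts of chains called in kidney, in liver and over animal means (ET against L), higher in spleen and lower in liver stayed within 1.5 times the reported ones under every alternative run. With the animal as replicate block, in 1 fit over every tissue, chains called between types numbered 5 in heart, 2 in lung and 0 in spleen. The main type fits took each tissue alone, so these counts do not show the effect of the block by itself. With the block, 8 chains had a type by tissue interaction. No other count changed by over 1.5 times in that fit. Leaving out 1 animal gave 0 to 10 chains in heart, 0 to 1 in lung, 1 to 8 in spleen and 0 to 4 for the interaction. For the block and for these fits the share of all genes called is not given here. Spleen had 0 at an adjusted p below 0.01 and 3 with a mean of at least 5 TPM. It had 3 with haemoglobin left out, 1 under median-ratio scaling and 0 under quantile normalisation. In these last 3 settings 1744, 273 and 23 of all genes were called lower, rather than 5172. The interaction had 0 at an adjusted p below 0.01, 1 under median-ratio scaling, 6 without mitochondrial proteins, 5 without a filter, 0 under quantile normalisation and 0 with the kidney library of S0235.

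Chains higher in heart numbered 14 under median-ratio scaling, 14 under quantile normalisation, 13 without mitochondrial proteins and 13 without a minimum difference, and those lower in heart 5 and 3 under the 2 scalings. Higher in lung were 6 under median-ratio scaling, 5 under quantile normalisation and 9 with a mean of at least 5 TPM; lower in lung were 11, 10, 3 without mitochondrial proteins, 6 without a minimum difference and 2 with a pseudocount of 0.1. In kidney 3 were higher with BLASTP hits, and 10 were lower without a minimum difference and 5 under quantile normalisation. In spleen 2 were lower without mitochondrial proteins, 5 without a minimum difference and 2 with a pseudocount of 0.1. In liver 0 were higher with transcripts of at least 80% identity, which leaves out the main COL18A1 transcript. Apart from that case, the cause was not tested. The number of all genes called is given with the tissue counts above for the 2 scalings and, in heart, without mitochondrial proteins. For the other settings it is not given here. Depth is unknown, so values near 0 TPM carry an unstated counting error.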
